A study of Rattus norvegicus with 9 samples.

Results

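The genes of cholesterol synthesis and sterol handling were followed through whole rat liver in cirrhosis and after cell transplantation. The set was chosen by function, with earlier results of these data known, and holds 27 genes. It has 8 enzymes from acetyl-CoA to geranylgeranyl diphosphate and 11 enzymes from squalene synthase to the last reductase. The others are 4 genes of the SREBP2 regulatory machinery and 4 genes of sterol transport. All 27 were found by symbol among the 40154 gene rows, and 26 passed the expression filter of at least 1 RPKM in 3 or more libraries. RPKM is the number of reads scaled to a gene model of 1 kb and a library of 1 M reads. Abcg8 did not pass and was not tested.

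The livers came from wild-type Sprague-Dawley rats aged 5 months, in 3 groups of 3 libraries. Normal rats had been given no carbon tetrachloride (CCl4), a liver toxin, and no cells. PBS rats were cirrhotic and were injected with phosphate-buffered saline, and HepLPC rats were cirrhotic and were injected with rat HepLPCs, hepatocyte-derived liver progenitor-like cells. Normal rats differ from PBS rats in both the injury and the injection, whose parts cannot be told apart. The labels do not call the replicates separate animals, so the p-values rest on a spread among samples that may be technical. PBS against normal shows the sterol genes in the cirrhotic liver, and HepLPC against PBS shows them after the cells were given. HepLPC against normal shares its samples with both.

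Cholesterol is built from acetyl-CoA through mevalonate, isoprenoid diphosphates, squalene and lanosterol. Most of the enzymes are transcribed under SREBP2 (Srebf2), a membrane-bound factor that the escort protein SCAP carries to the Golgi for cleavage when membrane sterol is low, and that the INSIG proteins hold in the endoplasmic reticulum when sterol is plentiful. In hepatocytes the product serves membranes, lipoproteins, bile acids and bile, and surplus sterol leaves through ABC transporters.

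Recovered depth was 17.4 to 21.8 M reads per library. PBS replicate 1 and HepLPC replicate 2 stood apart: their deviation from their own group mean ran against gene-model length over all 11124 tested genes (Spearman rho -0.564 and -0.528), against -0.157 to 0.423 in the other libraries. The summed RPKM of 10 hepatocyte markers lay at 88400 to 107000 in normal, 83000 to 91800 in PBS and 91300 to 104000 in HepLPC livers, and none of the 10 was called in any comparison. Summed markers of cholangiocytes, stellate cells and macrophages, and proliferation genes, were higher in every PBS library than in any other. The 8 cholangiocyte markers reached 51.6 to 181 RPKM there, against 8.91 to 10.6 in normal and 10.5 to 20.3 in HepLPC livers. Of these, 7 of 7 tested were called higher in PBS against normal, where 10.4% of all tested genes were. With normal sums this low, some of the 7 may have passed the expression filter only through PBS libraries, which limits what these calls can show. The 8 stellate cell and myofibroblast markers reached 87.9 to 142, against 30.5 to 32.8 and 53.4 to 73.9 (6 of 8 called higher in PBS), the 8 macrophage markers 254 to 360, against 125 to 159 and 140 to 200 (2 of 8), and the 6 proliferation genes 38.4 to 44.6, against 15.5 to 17.7 and 21.7 to 32.5 (6 of 6). Endothelial sums (65.7 to 71.8 in normal, 67.8 to 83.4 in PBS, 58.6 to 70.3 in HepLPC livers) and lymphocyte sums (3.49 to 6.29, 5.24 to 6.88 and 3.95 to 8.02) overlapped, with 0 markers called, and no marker of any list was at 0 in every library. The part of these cells in the results on sterol genes was not tested, and in bulk liver fewer cells of a type and less RNA per cell cannot be told apart.

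Of the 5 genes called higher in PBS against normal (Idi1, Sqle, Acat2, Msmo1 and Mvk), the promoters of 4 are shown, because the known factors at sterol promoters are SREBP2, NF-Y and SP1. That of Sqle is not shown. Sequences are the 250 bases before the RefSeq start in GRCr8, 5′ to 3′ on the gene's strand. Idi1 lies on the minus strand at chr17:66547525-66547774, Acat2 on the plus strand at chr1:50100590-50100839, Msmo1 on the plus strand at chr16:29746863-29747112 and Mvk on the minus strand at chr12:47819504-47819753. Capitals mark matches on either strand to TCACNCCA (the core of an SREBP motif), CCAAT (the NF-Y box, ATTGG on the other strand) or GGGCGG (the GC box, CCGCCC on the other strand). In these 4 sequences no matches overlap each other.
Idi1: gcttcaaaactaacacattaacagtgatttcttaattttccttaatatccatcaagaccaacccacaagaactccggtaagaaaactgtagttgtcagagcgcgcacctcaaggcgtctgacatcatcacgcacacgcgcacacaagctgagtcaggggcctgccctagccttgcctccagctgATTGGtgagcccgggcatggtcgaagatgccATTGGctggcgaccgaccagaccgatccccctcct
Acat2: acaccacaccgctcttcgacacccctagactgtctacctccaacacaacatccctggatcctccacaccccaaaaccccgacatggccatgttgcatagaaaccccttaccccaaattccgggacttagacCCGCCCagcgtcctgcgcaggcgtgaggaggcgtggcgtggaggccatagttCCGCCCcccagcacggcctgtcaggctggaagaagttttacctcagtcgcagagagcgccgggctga
Msmo1: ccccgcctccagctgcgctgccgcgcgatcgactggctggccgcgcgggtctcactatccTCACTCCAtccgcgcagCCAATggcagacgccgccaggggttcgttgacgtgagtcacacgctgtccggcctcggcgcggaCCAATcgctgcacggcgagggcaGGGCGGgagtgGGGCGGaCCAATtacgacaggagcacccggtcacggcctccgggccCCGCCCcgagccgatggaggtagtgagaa
Mvk: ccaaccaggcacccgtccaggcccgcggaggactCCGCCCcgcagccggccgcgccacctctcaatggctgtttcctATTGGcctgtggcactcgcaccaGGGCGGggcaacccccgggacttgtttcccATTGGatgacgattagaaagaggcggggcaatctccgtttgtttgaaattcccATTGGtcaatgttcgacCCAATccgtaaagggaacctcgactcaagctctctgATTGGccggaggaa

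Msmo1 held 1 match to the SREBP core, TCACTCCA at 190 bases before the start, with 3 NF-Y boxes and 3 GC boxes. Mvk held 5 NF-Y boxes and 2 GC boxes, Idi1 held 2 NF-Y boxes and Acat2 held 2 GC boxes. Counted over windows of 300 bases (250 before to 50 after the start), 23 of the 27 genes had an entry. The SREBP core was found in 2 of the 23, Msmo1 and Srebf2, a share to set beside 3.4% of the 8036 promoters of tested genes and 3.9% of all 33469 promoters. The Srebf2 match was TCACCCCA at 156 bases before the start. NF-Y boxes were found in 18 of 23 promoters, against 38.6% of tested and 37.5% of all promoters, and GC boxes in 17 of 23, against 62.5% and 33.1%. The windows of the divergent neighbours Abcg5 and Abcg8 overlap and share 1 NF-Y box, so over 22 distinct windows the counts were 17 for NF-Y boxes, 17 for GC boxes and 2 for the SREBP core. Matches to such short letters are descriptions and not binding sites, and sterol elements that vary from these letters were not searched.

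In the cirrhotic PBS livers 5 enzymes of the pathway were higher than in normal livers and 1 regulator was lower. Idi1 and Sqle changed most, at 2.96-fold and 2.65-fold the normal mean, followed by Acat2 (2.40-fold), Msmo1 (1.88-fold) and Mvk (1.61-fold). Insig2, which retains SREBP2, fell to 0.537 of its normal mean. By limma's test on log2(RPKM + 1), with Benjamini-Hochberg adjustment over the 11124 tested genes, 5 of 26 (19.2%) were called higher at an adjusted p under 0.05, where 10.4% of all tested genes were called higher, and 1 of 26 (3.85%) lower, where 0.944% were. In 11 of 26 (42.3%) every PBS library lay above every normal library, against 32.7% of all tested genes, and in 1 (3.85%) below, against 4.92%. The median difference of the 26 was 0.42 on the log2 scale, beside 0.18 for all tested genes. After rescaling the libraries by median ratios, calls over all tested genes went from 1157 higher and 105 lower to 512 and 275, and 4 sterol genes were called (Acat2, Idi1 and Sqle higher, Insig2 lower). Leaving out 1 library at a time gave between 2 and 8 calls. It was 3 without each normal library, and 2 without PBS replicate 2 or 3.

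**Figure D1:**
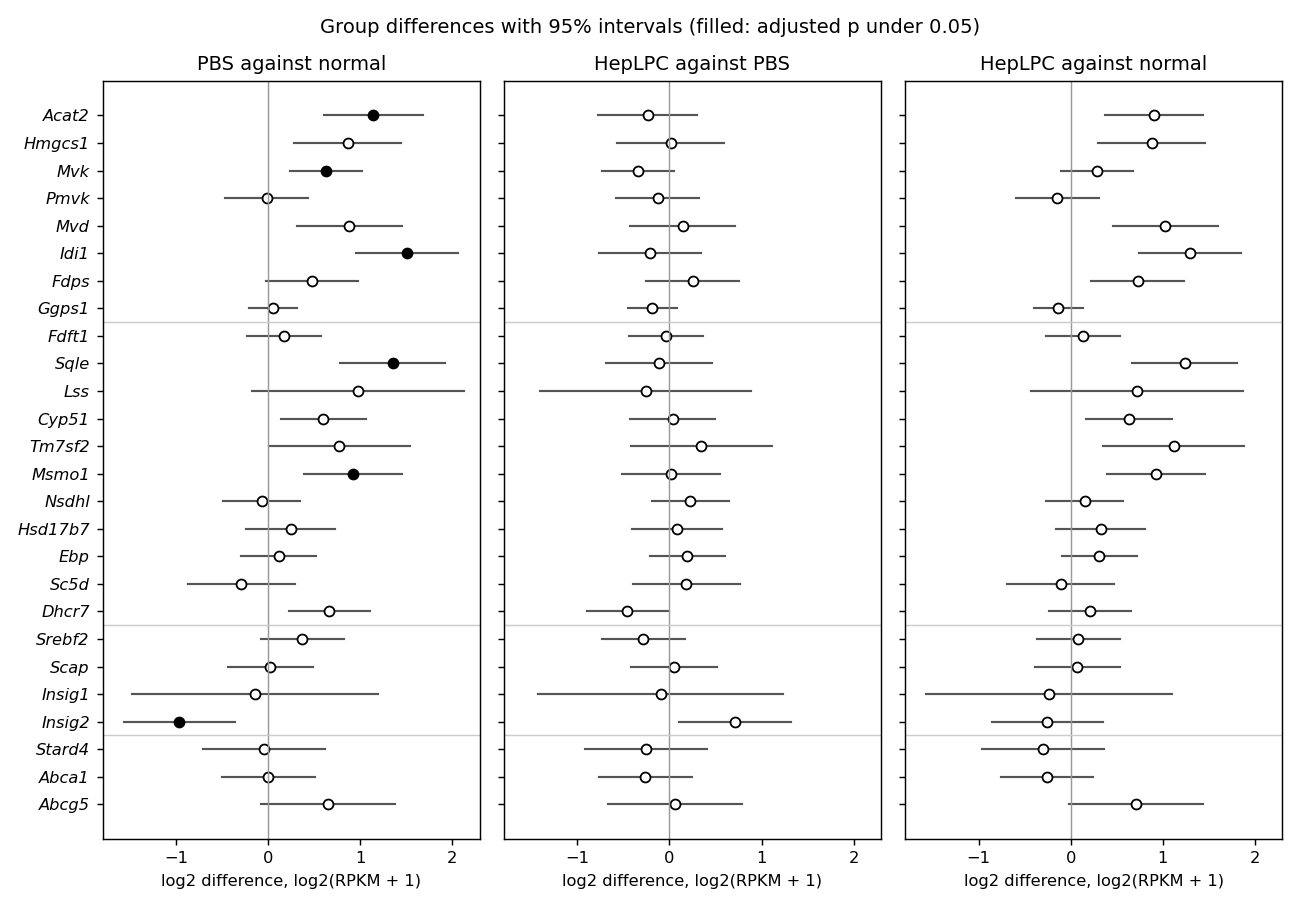
Differences of mean log2(RPKM + 1) between groups (x axis, with limma's 95% intervals) for the 26 tested genes in pathway order (y axis), for the 3 comparisons from left to right. Filled points have an adjusted p under 0.05: 5 genes to the right and Insig2 to the left of 0 in PBS against normal, and 0 in the other comparisons.

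The mevalonate steps begin with Acat2, which condenses acetyl-CoA. Acat2 was at 5.88, 7.41 and 6.49 RPKM in normal livers, at 13.1, 18.1 and 16.3 in PBS livers and at 12.5, 9.18 and 19.7 in HepLPC livers. Every PBS and every HepLPC library lay above all 3 normal libraries. The PBS mean of 15.8 ± 2.53 exceeded the normal mean of 6.59 ± 0.770 (SD, n = 3 each) by 1.14 on the log2 scale (SE 0.24, adjusted p = 0.0155). The adjusted p was 0.0629 without normal replicate 1, 0.0561 without normal replicate 3, 0.0526 without PBS replicate 2 and 0.0644 without PBS replicate 3. A related row, Acat2l1, was also called higher (0.77, adjusted p = 0.0224), and how reads that fit both were counted is unknown here, so the value of Acat2 is uncertain.

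Hmgcs1, which makes HMG-CoA for this pathway, was at 113, 104 and 139 RPKM in normal livers, 212, 249 and 189 in PBS livers and 158, 193 and 337 in HepLPC livers. The groups did not overlap between PBS and normal, and the difference was 0.86 (95% interval 0.28 to 1.45), which missed the threshold (adjusted p = 0.0629). It passed without HepLPC replicate 1 (adjusted p = 0.0444) or HepLPC replicate 3 (adjusted p = 0.0157), libraries that enter only through the shared estimate of the spread. Leaving out any 1 normal or PBS library raised the adjusted p to between 0.0975 and 0.203. Rescaling the libraries by median ratios lowered the difference to 0.58 (adjusted p = 0.217).

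Mvk, mevalonate kinase, was at 8.06, 8.92 and 8.63 RPKM in normal, 16.1, 13.0 and 12.2 in PBS and 8.15, 10.8 and 13.3 in HepLPC livers. PBS lay above normal without overlap and HepLPC spanned the range between. The difference between PBS and normal was 0.62 (SE 0.17, adjusted p = 0.0492), close to the threshold. Leaving out any 1 of the 6 normal and PBS libraries raised the adjusted p to between 0.0926 and 0.142. Rescaling the libraries by median ratios lowered the difference to 0.36 (adjusted p = 0.321). Of the next kinase and decarboxylase, Pmvk differed by -0.02 and Mvd by 0.88 (adjusted p = 0.0546). Mvd lay at 3.71 to 6.43 RPKM in normal and 7.71 to 11.6 in PBS livers. It too passed without HepLPC replicate 1 (adjusted p = 0.0386) or HepLPC replicate 3 (adjusted p = 0.0446). Leaving out any 1 normal or PBS library raised the adjusted p of Mvd to between 0.067 and 0.17. After rescaling by median ratios Mvd differed by 0.63 (adjusted p = 0.207).

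Idi1, the isomerase that converts isopentenyl to dimethylallyl diphosphate, showed the largest difference of the 26 genes between PBS and normal livers. Its values were 15.7, 17.1 and 20.1 RPKM in normal livers, 61.4, 48.3 and 46.9 in PBS livers and 28.7, 57.2 and 54.0 in HepLPC livers. All 6 libraries of cirrhotic rats lay above all normal libraries, and HepLPC replicate 1 was the lowest of the 6. These values rest on 878 to 3114 recovered reads per library. The group means were 17.6 ± 2.27, 52.2 ± 7.98 and 46.6 ± 15.6 RPKM (SD, n = 3 each). PBS exceeded normal by 1.51 (SE 0.25, 95% interval 0.96 to 2.06, adjusted p = 0.00481). Idi1 overlaps the gene Wdr37 in the GRCr8 annotation, and whether counting used strand is unknown here. Wdr37 itself was at 1.95 to 3.63 RPKM over the 9 libraries and differed by 0.15 (adjusted p = 0.629).

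The branch-point enzymes after Idi1 differed less. Fdps, farnesyl diphosphate synthase, was at 158 to 203 RPKM in normal and 203 to 298 in PBS livers, a difference of 0.48 (adjusted p = 0.206). Ggps1, which leads to the non-sterol geranylgeranyl diphosphate, lay between 1.63 and 2.37 RPKM in all 9 libraries and differed by 0.05 (95% interval -0.21 to 0.31). Of the 8 mevalonate genes, 3 were called higher (37.5%, against 10.4% of all tested genes) and 0 lower (against 0.944%), and their median difference was 0.74, beside 0.18 for all tested genes.

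**Figure D2:**
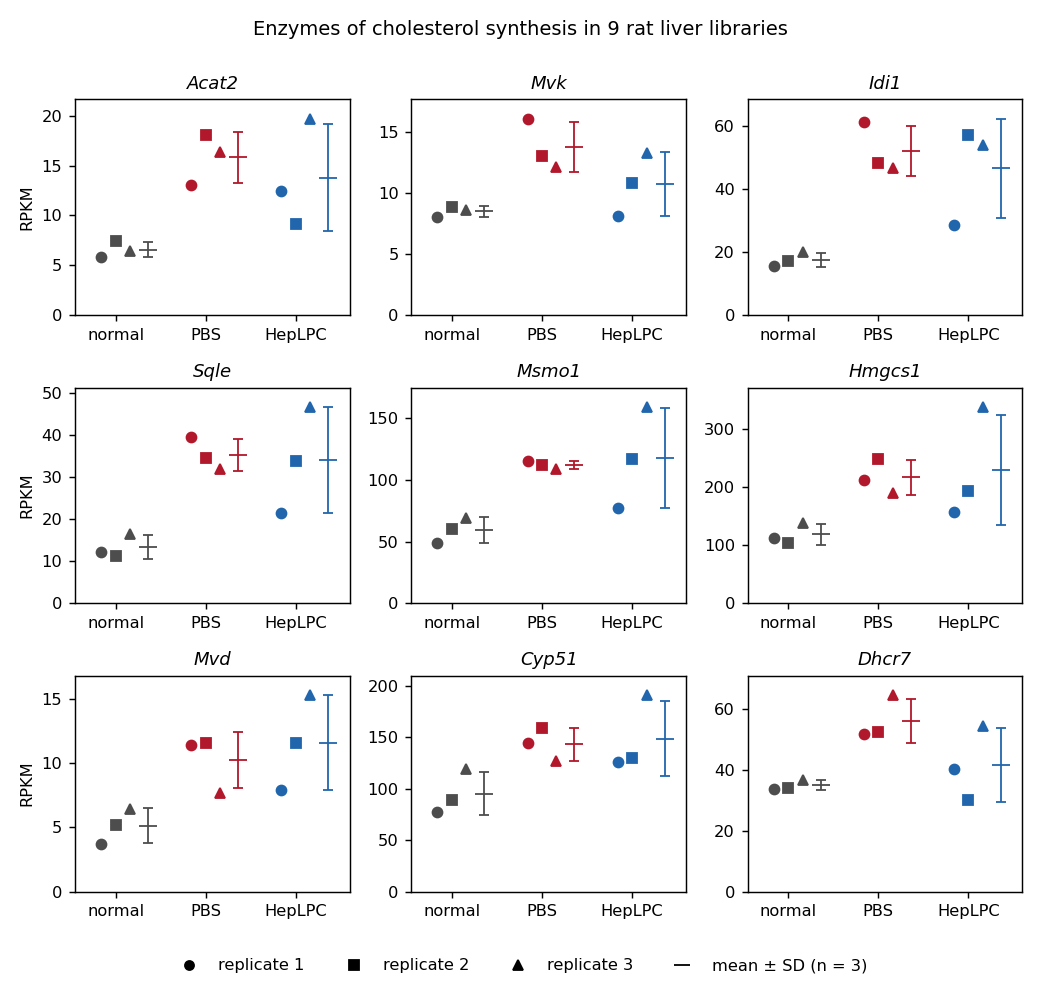
RPKM of 9 enzymes (y axis from 0, its own scale in each panel) by group (x axis), with 1 symbol per replicate and the mean ± SD (n = 3) beside them. The 9 are taken from the 10 of 19 enzymes (52.6%) whose PBS libraries all lay above the normal ones, against 32.7% of all tested genes. By this choice the 3 PBS points lie above the 3 normal points in all 9 panels. The HepLPC points spread more widely, with Idi1 between 28.7 and 57.2.

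Among the squalene and sterol steps, 2 of 11 genes (18.2%) were called higher and 0 lower, against 10.4% and 0.944% of all tested genes, with a median difference of 0.60 beside 0.18. Sqle, squalene epoxidase, a rate-limiting step of the later pathway, was at 12.3, 11.2 and 16.5 RPKM in normal, 39.5, 34.5 and 31.8 in PBS and 21.4, 33.8 and 46.6 in HepLPC livers. All cirrhotic livers exceeded all normal livers, and the difference between PBS and normal was 1.35 (SE 0.25, 95% interval 0.78 to 1.92, adjusted p = 0.00992). Idi1 and Sqle were called in 16 of 16 alternative analyses.

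Msmo1, the oxidase that removes methyl groups from lanosterol derivatives, was at 48.7, 60.4 and 69.3 RPKM in normal, 115, 112 and 109 in PBS and 77.6, 117 and 159 in HepLPC livers. The PBS libraries were close together and above all normal libraries, while the HepLPC libraries ran from near the normal range to the highest value of the 9. The difference between PBS and normal was 0.92 (SE 0.24, adjusted p = 0.0372). Leaving out any 1 normal or PBS library raised the adjusted p to between 0.0628 and 0.126, and rescaling the libraries by median ratios raised it to 0.176.

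Further along, Cyp51, the lanosterol demethylase, and Dhcr7, the reductase that yields cholesterol, also separated PBS from normal livers without reaching the threshold. Cyp51 was at 77.6 to 119 RPKM in normal and 127 to 159 in PBS livers (difference 0.60, adjusted p = 0.0965), and Dhcr7 at 33.8 to 36.8 and 51.7 to 64.6 (difference 0.67, adjusted p = 0.0605). Dhcr7 passed without HepLPC replicate 2 (adjusted p = 0.0162) or HepLPC replicate 3 (adjusted p = 0.0284). Leaving out any 1 normal or PBS library raised its adjusted p to between 0.0854 and 0.21. After rescaling by median ratios Dhcr7 differed by 0.39 (adjusted p = 0.208). The sterol reductase Tm7sf2 was at 22.3, 26.1 and 57.1 RPKM in normal livers and 48.7 to 66.9 in PBS livers. Its normal replicate 3 overlapped the PBS range, and the difference of 0.77 (adjusted p = 0.181) became 1.17 (adjusted p = 0.0377) without that library.

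Lss, which closes the sterol rings, varied widely within groups, at 3.60, 8.30 and 6.87 RPKM in normal, 7.71, 19.9 and 13.2 in PBS and 13.0, 4.11 and 20.1 in HepLPC livers. Its lowest values in the PBS and HepLPC groups fell in the pair of libraries that stood apart by length. The difference of 0.98 between PBS and normal (adjusted p = 0.254) was 1.31 (adjusted p = 0.0277) without that pair. It was 0.78 (adjusted p = 0.368) with the length trend removed. Lss, at 2853 bases, was among the 13 shorter of the 26 genes, whose median deviation in HepLPC replicate 2 was 0.06. Lss itself deviated by -1.16 there. The remaining 5 enzymes, Fdft1 (squalene synthase, 0.17), Nsdhl (-0.07), Hsd17b7 (0.24), Ebp (0.12) and Sc5d (-0.29), overlapped between PBS and normal, with adjusted p of 0.508 or more. The difference was not uniform over the pathway, and 16 of 19 enzymes (84.2%) had a positive difference, beside 76.1% of all tested genes. Rescaling by median ratios changed the sign of 5 of the 26 sterol genes, 0 of them among the called.

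**Figure D3:**
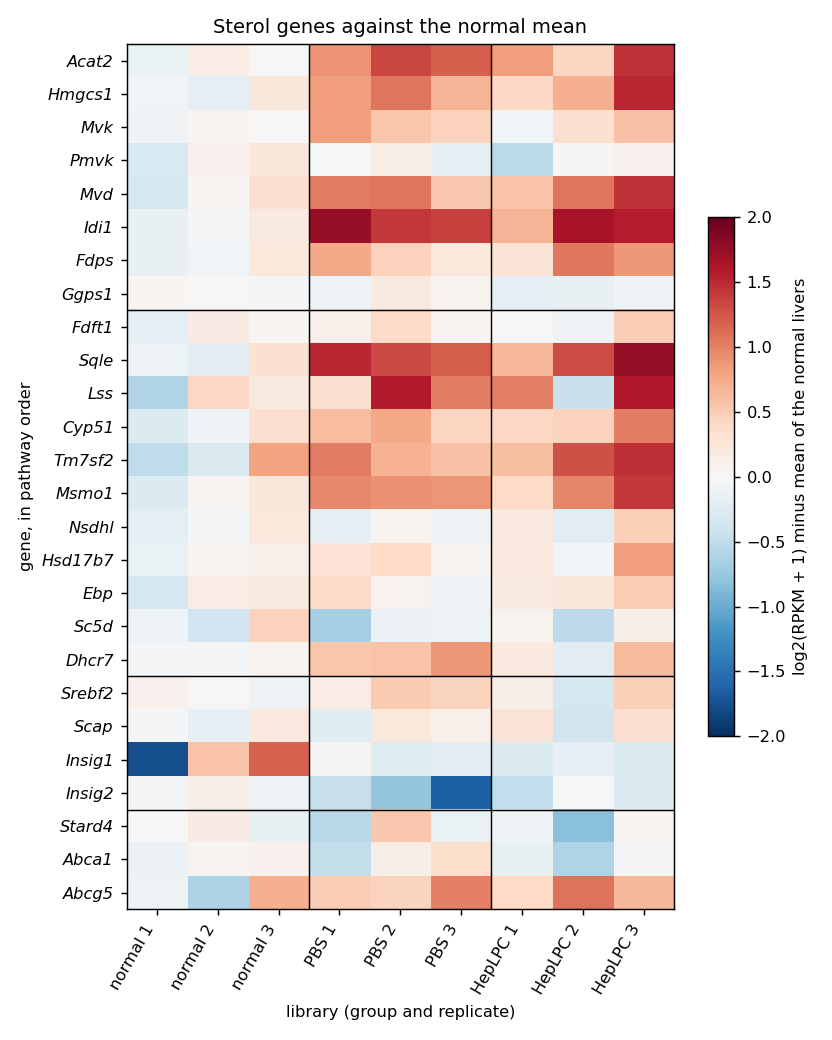
Each tested gene (rows, in pathway order) in each library (columns) as log2(RPKM + 1) minus the mean of the normal livers, red higher and blue lower, on a scale from -2 to 2. PBS libraries had 16, 18 and 15 of the 19 enzymes above the normal mean and HepLPC libraries 16, 12 and 18. Normal replicates 1, 2 and 3 had 1, 9 and 17. As group differences, 84.2% of the enzymes were positive in PBS against normal, beside 76.1% of all tested genes. In HepLPC against normal the shares were 84.2% and 59.4%.

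Transcripts of the regulators did not move as a block. In PBS against normal 0 of the 4 genes were called higher and 1 lower (25%), against 10.4% and 0.944% of all tested genes. Srebf2 was at 10.3, 9.73 and 8.93 RPKM in normal, 10.8, 14.3 and 13.5 in PBS and 10.6, 7.36 and 13.8 in HepLPC livers. PBS lay just above normal without overlap, by 0.37 (95% interval -0.08 to 0.82, adjusted p = 0.272), and without PBS replicate 1 and HepLPC replicate 2 the difference was 0.48 (adjusted p = 0.0307). Scap, its escort, lay between 6.66 and 11.5 RPKM over the 9 libraries and differed by 0.02. These are transcript levels, and cleavage of the SREBP2 protein was not measured.

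Insig2 was at 126, 140 and 120 RPKM in normal livers, 92.9, 74.1 and 40.6 in PBS livers and 91.0, 130 and 106 in HepLPC livers. Each PBS library was below each normal library, and HepLPC libraries overlapped both groups. The difference between PBS and normal was -0.96 (SE 0.27, adjusted p = 0.0494). Without PBS replicate 3, the lowest library, it was -0.63 (adjusted p = 0.105). The call was also lost without each of the 3 normal libraries, PBS replicate 2, HepLPC replicate 1 or HepLPC replicate 3, with an adjusted p of 0.0607 to 0.161.

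Insig1, itself a classical SREBP2 target, was spread over 58.6, 297 and 453 RPKM in the normal livers, but over only 169 to 202 RPKM in PBS and 165 to 177 in HepLPC livers. The coefficient of variation was 73.7% in normal and 4.09% in HepLPC livers. No difference between groups could be read from it (PBS against normal -0.14, 95% interval -1.48 to 1.19). Without normal replicate 1 it was -1.02 (adjusted p = 0.0227), and without normal replicate 3 it was 0.45 (adjusted p = 0.689). Normal replicate 1 also held the lowest value of its group for 17 of the 27 genes and normal replicate 3 the highest for 19.

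Of the transport genes 3 of 4 were tested and 0 were called in any comparison. Among all tested genes, 10.4% were called higher and 0.944% lower in PBS against normal. The shares were 0.135% and 2.93% in HepLPC against PBS, and 0.0449% and 0.036% in HepLPC against normal. With 3 genes, a count of 0 does not show that sterol transport was unchanged. Abca1, which exports cholesterol to apolipoprotein A-I, was at 10.1, 11.5 and 11.8 RPKM in normal, 7.70, 12.2 and 14.5 in PBS and 9.96, 6.998 and 10.9 in HepLPC livers. The 3 groups overlapped and PBS differed from normal by 0.00 (95% interval -0.50 to 0.50). Stard4, a cytosolic sterol carrier, differed by -0.05 and lay between 3.86 and 11.6 RPKM. Abcg5 and Abcg8 form the heterodimer that secretes sterols into bile. Abcg5 was at 0.836, 0.282 and 2.21 RPKM in normal, 1.77, 1.69 and 2.93 in PBS and 1.57, 3.16 and 2.08 in HepLPC livers, with overlapping groups (difference 0.65, adjusted p = 0.23). Abcg8 was at 0.0931, 0.00851 and 0.147 RPKM in normal, 0.177, 0.261 and 0.442 in PBS and 0.240, 0.652 and 0.458 in HepLPC livers. All its normal values lay below all others, but they rest on 1 to 17 reads per library, and the 6 other libraries on 17 to 68.

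**Figure D4:**
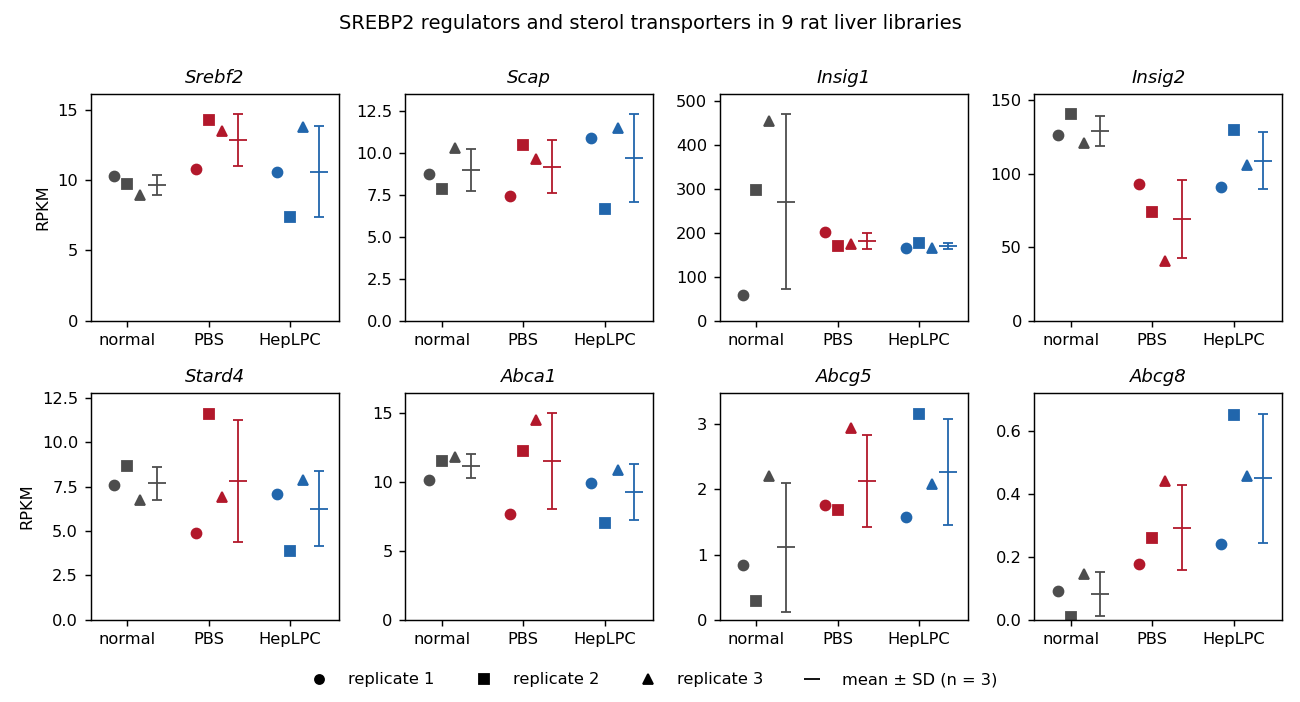
RPKM of 4 regulators and 4 transport genes (y axis from 0, its own scale in each panel) by group (x axis), with 1 symbol per replicate and the mean ± SD (n = 3). Insig2 is lower in the 3 PBS libraries than in the 3 normal ones, Insig1 spreads from 58.6 to 453 in normal livers only, and Abcg8 reaches at most 0.652.

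After HepLPC injection, the sterol genes were not called different from PBS livers: 0 of 26 were called higher and 0 lower by limma, where 0.135% of all tested genes were called higher and 2.93% lower. At an unadjusted p under 0.05, 1 was higher and 1 lower (3.85% each), against 2.1% and 14% of all tested genes. Insig2 was higher by 0.71 (95% interval 0.10 to 1.32, adjusted p = 0.234) and Dhcr7 lower, at -0.46 (-0.90 to -0.01, adjusted p = 0.297). In 0 of 26 genes did the groups separate without overlap in either direction, against 2.79% of tested genes higher and 15.6% lower. The median difference was -0.01, beside -0.14 for all tested genes, with 13 genes positive and 13 negative. It was -0.22 without HepLPC replicate 3 (all tested genes -0.19) and 0.10 without HepLPC replicate 1 (all tested genes -0.16). The differences of the 5 enzymes called in cirrhosis were -0.21 for Idi1 (95% interval -0.76 to 0.34), -0.12 for Sqle (-0.69 to 0.46), -0.24 for Acat2 (-0.77 to 0.30), 0.01 for Msmo1 (-0.52 to 0.54) and -0.34 for Mvk (-0.73 to 0.05). The lower ends of these intervals reach -0.52 to -0.77, so the test does not show that the groups are alike.

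The spread within the HepLPC group was wide, and the order of the libraries was not the same for all enzymes. HepLPC replicate 3 had the highest value of its group for 21 of the 27 genes. HepLPC replicate 1 had the highest for 0 and the lowest for 15, and HepLPC replicate 2 the highest for 6 and the lowest for 11. Among the enzymes, HepLPC replicate 2 was highest for Idi1 and Fdps but lowest for others, such as Acat2, Lss and Dhcr7. The median enzyme stood 0.27, 0.31 and 0.86 above the normal mean in HepLPC replicates 1, 2 and 3, and 0.62, 0.57 and 0.47 above it in the PBS replicates. Msmo1, for example, had a mean of 118 ± 40.6 RPKM in HepLPC livers and 112 ± 3.12 in PBS livers, and Hmgcs1 229 ± 94.8 and 216 ± 30.1 (SD, n = 3 each).

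Against normal livers, HepLPC livers had 0 of 26 genes called in either direction, where 0.0449% of all tested genes were called higher and 0.036% lower. At an unadjusted p under 0.05, 9 were higher (34.6%) and 0 lower, against 7.34% and 1.98% of all tested genes. The largest difference was that of Idi1, at 1.30 (95% interval 0.75 to 1.85, adjusted p = 0.131), followed by Sqle at 1.24 (adjusted p = 0.168), Tm7sf2 at 1.12 (adjusted p = 0.351) and Mvd at 1.03 (adjusted p = 0.253). Without HepLPC replicate 1, Idi1 was called (1.61, adjusted p = 0.0374). In 8 of 26 genes (30.8%), all of them enzymes, every HepLPC library lay above every normal library, against 12.3% of tested genes. These were Acat2, Hmgcs1, Mvd, Idi1, Fdps, Sqle, Cyp51 and Msmo1. Only Ggps1 (3.85%) lay below throughout, against 3.51% of tested genes. The median difference was 0.30, beside 0.05 for all tested genes, and for the 19 enzymes it was 0.63, close to their 0.62 in PBS against normal, a comparison that shares the normal livers. Without HepLPC replicate 3 the median of the 26 was 0.10, beside 0.01 for all tested genes.

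Within the sterol genes, deviations followed length in several libraries. Spearman's rho between a gene's deviation from its group mean and its length was -0.616 in PBS replicate 1 and -0.552 in HepLPC replicate 2 (26 genes of 1 library each, given as a description). It was as large in the other direction in normal replicate 1 (0.659) and HepLPC replicate 1 (0.607), and lay between -0.392 and 0.476 in the remaining 5 libraries. In HepLPC replicate 2 the 13 shorter genes had a median deviation of 0.06 and the 13 longer genes -0.37, and in PBS replicate 1 the medians were 0.16 and -0.11. Without both libraries, 7 of the 26 genes were called in PBS against normal: Acat2, Idi1, Sqle, Lss, Dhcr7 and Srebf2 higher and Insig2 lower. Calls over all 11124 tested genes rose as well, from 1157 higher and 105 lower to 2895 and 273. The added calls are therefore not particular to the sterol genes. With the length trend removed from every library, 3 were called, Acat2, Idi1 and Sqle, all higher. Of all tested genes 715 were then called higher and 423 lower.

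**Figure D5:**
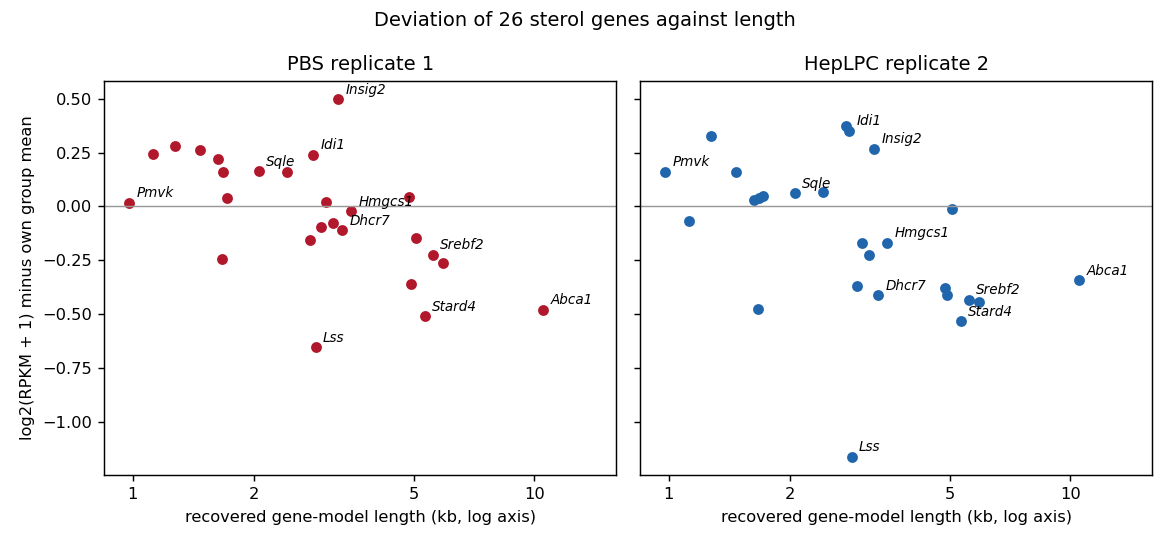
Deviation of 26 sterol genes from the mean of their own group (y axis, log2(RPKM + 1)) against the recovered length of the gene model (x axis, kb, log axis) in PBS replicate 1 (left) and HepLPC replicate 2 (right). Points fall from upper left to lower right (rho -0.616 and -0.552), with Lss lowest in HepLPC replicate 2.

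Of 31 other genes of sterol synthesis, uptake, storage and regulation 29 were tested, and 1 was called higher (3.45%) and 0 lower in PBS against normal, against 10.4% and 0.944% of all tested genes. The median difference was 0.16, beside 0.18. The gene called was Soat1, which esterifies cholesterol for storage and is abundant in macrophages, at 0.430, 0.551 and 0.852 RPKM in normal, 1.67, 2.05 and 2.52 in PBS and 1.12, 0.148 and 0.886 in HepLPC livers. All PBS libraries lay above all others. Soat1 reached 1 RPKM only in the PBS libraries and HepLPC replicate 1, and all its normal values lay under 1. It thus passed the filter only through the group where it was high, which limits what its call can show. The difference between PBS and normal was 0.93 (adjusted p = 0.0307). The call was lost without each normal library or PBS replicate 2 or 3, with an adjusted p of 0.0581 to 0.12, and in 9 of 16 alternatives in all. In the comparisons of HepLPC with PBS and with normal, 0 of the 29 were called by limma. Of all tested genes, 0.135% were called higher and 2.93% lower in the first, and 0.0449% and 0.036% in the other. At an unadjusted p under 0.05, 2 of the 29 (6.9%) were lower in the first, against 14% of all tested genes. In the other 0 were higher or lower, against 7.34% and 1.98%.

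The sister pathway of fatty acid synthesis, which is driven mainly by SREBP1c, had 1 of 12 tested genes called lower (8.33%) and 0 higher in PBS against normal, where 0.944% and 10.4% of all tested genes were. Its median difference was -0.77, with 8.33% of the 12 positive beside 76.1% of all tested genes. The gene called was Scd, stearoyl-CoA desaturase, at 1017, 1648 and 980 RPKM in normal, 370, 351 and 490 in PBS and 960, 414 and 687 in HepLPC livers (-1.56, adjusted p = 0.0135). HepLPC against PBS had 0 of the 12 called, where 0.135% of all tested genes were called higher and 2.93% lower.

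Across the 9 libraries, the gene whose log2(RPKM + 1) followed Idi1 most closely among 11123 others was Sqle (Pearson r = 0.974). The next 9 were Abracl, Pdrg1, Ergic2, Knstrn, Ddx24, Rhbg, Bub3, Dync1i2 and Cdca3, with r from 0.969 to 0.956. Of the sterol genes Msmo1 ranked 19 (0.947), Mvd 80 (0.912) and Hmgcs1 212 (0.873), while Insig2 ranked 10196 (-0.452). These correlations describe 9 libraries in 3 groups, so group differences enter them. The part of effects shared by all genes of a library was not tested.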

How the data were processed

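Total RNA of 9 rat liver samples was sequenced from TruSeq libraries on Illumina instruments, per the labels' protocols. HISAT2, StringTie and hg19, a human build, appear in the submitters' processing notes, although the rows carry rat symbols, so the build behind the values is uncertain. Whether counting used strand, and the sequencing batch of each library, are not given in the sources used here. Per the file headers, the authors deposited RPKM for 40154 gene rows. Whole reads and gene-model lengths were recovered from the steps in RPKM for 20959 of 20959 genes above 0 in 3 or more libraries (tolerance 0.01 read), giving 17.4 to 21.8 M reads per library.

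Groups and replicate numbers came from the sample titles. limma 3.58.1 (R 4.3.3; lmFit and eBayes with a trend, 2-sided) was fitted to log2(RPKM + 1) of the 11124 genes that reached 1 RPKM in no fewer than 3 libraries, with all 9 libraries in 1 model and 6 residual degrees of freedom. Fold changes on this scale understate those of low genes. p-values were Benjamini-Hochberg adjusted over all tested genes and called under 0.05. The script was tested on simulated data. Alternatives were a pseudocount of 0.1, no filter, median-of-ratios rescaling, only the compared groups, a replicate block, leaving out libraries and, chosen after seeing the data, removing a length trend.

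The sterol genes, the gene lists and the tests were chosen with earlier results of these data known. Values in every library are given for sterol genes called in any comparison and for Idi1, Srebf2, Insig1, Insig2, Abca1, Abcg5 and Abcg8. Some others are named for their values. Of the other pathway genes the called ones are named, with the 10 genes most like Idi1 by Pearson correlation. Symbols were matched to RefSeq (GRCr8), which gave the promoters. Some genes of the pathway are not reported here.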

Additional observations from a re-analysis of the deposited data

How the results depend on the processing

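The number of sterol genes called in PBS against normal, 6, was 3 with no filter on low values, 3 with the length trend removed (an alternative chosen after seeing the data) and between 2 and 8 when 1 library was left out. With a replicate block it was 4. The replicate numbers were not taken to pair the samples: deviations correlated over 0.1 in 3 of 9 same-numbered pairs (-0.412 to 0.31). Over the 16 alternatives, the PBS against normal call was lost in 0 for Idi1 and Sqle, 4 for Acat2, 10 for Msmo1, 12 for Mvk, 12 for Insig2 and 9 for Soat1 (adjusted p = 0.0912 with a pseudocount of 0.1, 0.0579 with no filter, 0.0712 after rescaling and 0.099 with the length trend removed). It was gained in 3 for Hmgcs1, 3 for Mvd, 4 for Dhcr7, and 1 each for Tm7sf2, Lss, Srebf2 and Insig1. Insig1 was -1.02 without normal replicate 1 and changed sign without normal replicate 2 (0.14) or normal replicate 3 (0.45). Rescaling by median ratios moved the median of all genes in PBS against normal from 0.18 to -0.05 and that of the sterol genes from 0.42 to 0.15, so their distance from all genes went from 0.24 to 0.19. In HepLPC against PBS it moved the sterol genes from -0.01 to 0.20. Calls over all genes in PBS against normal were 1157 higher and 105 lower, 512 and 275 after rescaling, and 715 and 423 with the length trend removed. They numbered 1262 in all, 787 with the replicate block, 787 after rescaling, 3168 without PBS replicate 1 and HepLPC replicate 2, and 562 to 1809 with 1 library left out. The count of 0 in HepLPC against normal was 1 (Idi1) without HepLPC replicate 1, a range of 0 to 1 over single libraries left out. Depth limits Abcg5 and Abcg8, at 17 to 169 and 1 to 68 reads per library.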
